A study of Mus musculus with 4 samples.

Results

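The cells of the vessel wall were picked out of a droplet single-cell RNA-seq library of the embryonic mouse arcuate nucleus (ARC) by the transcripts they carried. Members were chosen by their raw counts of unique molecular identifiers (UMIs, one per captured transcript). A cell with at most 3 UMIs of the neuronal gene Stmn2 was called endothelial when Cldn5 and Pecam1 together reached 2 UMIs. It was called mural when that sum was below 2, Col1a1, Lum and Dcn together stayed below 3, and Rgs5 and Pdgfrb together reached 2. Of 6351 cells that passed the quality filters, 68 (1.07%) met these gates. The endothelial gate held 20 cells (0.315% of kept cells, exact binomial 95% interval 0.192 to 0.486) and the mural gate 48 cells (0.756%, 0.558 to 1.001).

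The library came from Pomc-eGfp embryos on the C57BL/6 background, labelled E15 (embryonic day 15) where the sample titles read E15_5, with no second genotype, treatment or age. The regions with green fluorescence, driven by the Pomc transgene, were cut out to locate the ARC, the pieces of several embryos were pooled and dissociated with papain, and the cells were captured on the 10x platform. The 4 samples are sequencing runs of 1 library and the cells carry no record of their embryo, so there are no replicates. For that reason no test was run, and every interval given covers counting error only. The labels describe the material as neurons, whereas the gated cells carried little neuronal transcript, which the Stmn2 limit of the gate favoured.

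Endothelial cells form the inner lining of blood vessels, and mural cells, which are pericytes on capillaries and smooth muscle cells on larger vessels, wrap around them within a shared basement membrane. Growing endothelium draws in pericytes by secreting PDGF-B, which is read by the PDGF receptor beta on the mural cell. Most brain capillaries seal themselves with tight junctions and specific transporters, the blood-brain barrier. The capillaries of the median eminence and pituitary beside the ARC stay fenestrated and carry Plvap in the diaphragms of their pores.

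Levels are given as CPM: the UMIs of a gene summed over the cells of a group, scaled to a group total of 1000000 UMIs, with an exact Poisson 95% interval. The endothelial cells held 135137 UMIs in all, with 1807 to 16836 per cell (median 4424). The mural cells held 181583, with 1805 to 10616 per cell (median 3222). They were set against all 6283 other kept cells, mostly neurons, with a median of 3336 UMIs per cell. A count of 0 allows up to 22.2 CPM in the endothelial and 16.5 CPM in the mural cells. Ratios to a count of 0, given as at least so many-fold, set the CPM of the higher group against such a limit. They leave out the counting error of that CPM and are not interval bounds. A gene was counted as higher when its CPM was at least 2-fold that of the comparison cells with at least 10 UMIs in the group, and as lower when the comparison cells were at least 2-fold higher with at least 10 UMIs expected in the group. Of 16559 genes detected in more than 3 cells, 4.4% were higher and 3.8% lower in endothelial than in other cells. In mural cells 4.47% were higher and 4.55% lower. These shares are the background for every list count against the other cells below. The median ratio over all genes was 0.435 for endothelial and 0.572 for mural cells.

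The gate genes themselves, which carry no evidence of their own, stood as follows. Cldn5, a claudin of endothelial tight junctions (GRCm38 chromosome 16, 18776847 to 18778262, plus strand), was at 947 CPM in endothelial cells, 5.51 in mural cells and 1.33 in the others. Pecam1, an adhesion molecule of endothelial junctions, was at 570, 11 and 10.5 CPM. Rgs5, a regulator of G protein signalling found in pericytes (chromosome 1, 169655501 to 169695813, plus strand), was at 51.8, 2638 and 3.90 CPM. Pdgfrb was at 29.6, 518 and 4.60 CPM. At the edge of the endothelial gate, 1 member had a sum of 2 and 3 members a sum of 3, while 103 cells in no other gate had a sum of 1. At the mural limit of 2 UMIs there were 3 members, and 42 cells stood 1 UMI below it. Of the cells just outside, 2 at the endothelial and 2 at the mural edge carried at least 5 markers of that type. A further 6 cells met the endothelial sum and 6 the mural sum but had more than 3 Stmn2 UMIs, and 17 met the mural sum but not the collagen limit. At least 5 markers of the respective type were carried by 2, 5 and 1 of these cells.

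Endothelial genes that the gate did not use (10 in all: Cdh5, Kdr, Flt1, Tek, Tie1, Emcn, Esam, Egfl7, Ramp2 and Eng) served to check the endothelial label, and 8 mural genes (Cspg4, Kcnj8, Abcc9, Notch3, Vtn, Higd1b, Ndufa4l2 and Mcam) the mural one. At least 5 of the 10 endothelial markers were detected in 19 of the 20 endothelial cells, in none of the 48 mural cells and in 5 of the 6283 others. The label was therefore borne out in 19 cells. The remaining cell entered on 2 Pecam1 UMIs alone, had none of the 10 markers, and held 18 of the 24 Pomc UMIs of the group. Another member, with 14608 UMIs, carried all 10 endothelial and 6 of the 8 mural markers, including 7 Rgs5 UMIs. Whether it is 1 cell or 2 in a droplet was not tested. Leaving both out, 19 of the 22 endothelial identity genes below still met the 2-fold rule.

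The mural label held for 33 of the 40 cells with an Rgs5 UMI, which carried at least 5 of the 8 markers, against 8 of the 6283 others. The other 7 cells with Rgs5 carried 1 to 4 markers. The 8 cells that entered on Pdgfrb alone carried 0 to 4 of them, and Higd1b and Vtn were at 0 UMIs in all 8. These 8 cells are described separately below and are named here only by their gate.

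**Figure D1:**
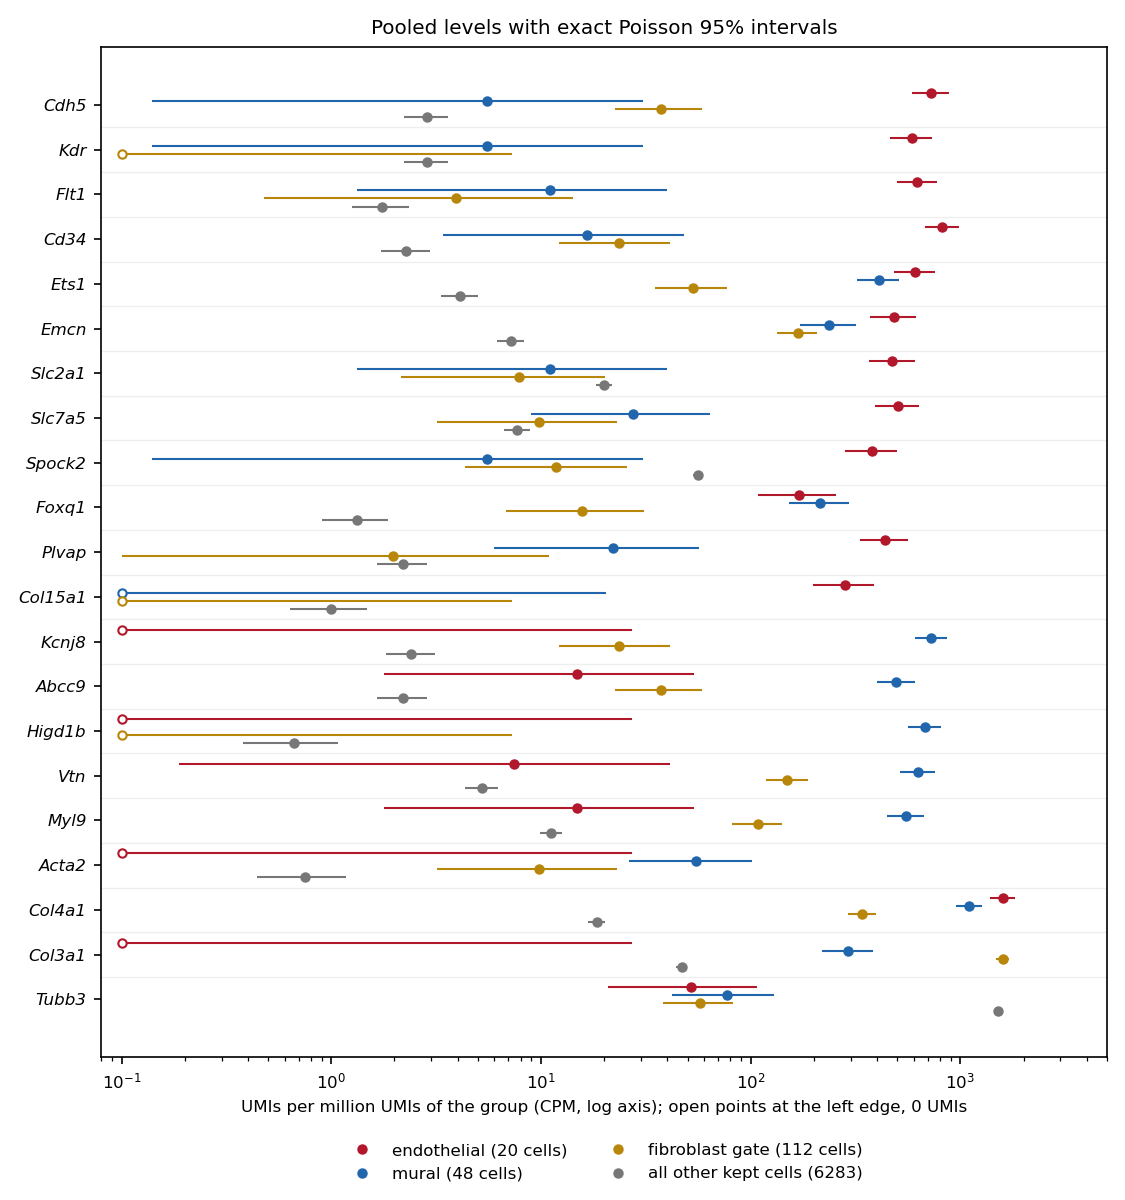
Pooled levels of identity, barrier, mural, matrix and neuronal genes in CPM on a log axis, with points for each group of cells and lines for exact Poisson 95% intervals. The other cells include the fibroblast gate, and open points at the left edge stand for 0 UMIs. Endothelial genes such as Cdh5 (725 CPM) and mural genes such as Higd1b (677 CPM) lie apart in the respective groups, whereas Ets1, Emcn, Foxq1 and Col4a1 were high in both.

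Endothelial identity genes were nearly all higher in the endothelial cells. Of 22 such genes, 20 met the 2-fold rule against the other cells (background 4.4%) and none was lower, with a median ratio of 159. Cdh5, the cadherin of endothelial adherens junctions, was at 725 CPM (589 to 884) from 98 UMIs in 19 cells, against 5.51 in mural and 2.86 in other cells. Kdr and Flt1, both receptors for VEGF, were at 585 CPM (463 to 729) and 622 CPM (496 to 770). Cd34, a sialomucin of endothelium and blood progenitors, was at 821 CPM, which was 360 times the other cells (258 to 507) and 175 times with the limit on detected genes, described below, lifted. The transcription factors Fli1, Sox7, Sox18, Lmo2 and Ets1 all met the rule, while Erg and Sox17 had 6 UMIs each, too few to be counted. Lymphatic markers were near 0, with 4 UMIs over the 4 genes of that list.

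Markers of other cell types were low in the endothelial cells. All 12 macrophage genes were at 0 UMIs, and the 12 fibroblast genes summed to 8 UMIs. All 10 neuronal genes were lower than in the other cells (background 3.8%), with the neuronal tubulin Tubb3 at 51.8 CPM against 1514. The limit on Stmn2 in the gate favoured this outcome, so it is no independent check of the label. The 4 platelet genes, of which 2 were detected in enough cells to be compared, summed to 2 UMIs. Globin Hbb-bs, a red cell transcript, which gauges free RNA in droplets, was found in 50% of endothelial, 47.9% of mural and 43.1% of other cells. No gene of the blood list was higher or lower in either group. Pituitary genes were lower or under the minimum (4 of 10 lower in endothelial and 7 of 10 in mural cells). Of 10 neural progenitor genes, 1 was higher and 4 were lower in endothelial cells, and 2 were higher (Nes and Mdk) and 3 lower in mural cells. The Mdk call rested on the 8 mural cells without Rgs5, which held 80 of its 130 UMIs: the ratio to the other cells was 2.08, and 1.13 without them. The intermediate filament gene Nes was at 81.4 CPM in endothelial and 88.1 CPM in mural cells, against 22.4.

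Barrier genes were present in part. Of 19 such genes detected in enough cells, 10 met the 2-fold rule in endothelial cells (Slc2a1, Abcg2, Tjp1, Slc7a5, Slc3a2, Lsr, Itm2a, Foxf2, Foxq1 and Spock2), with a median ratio of 19.2, and 9 did not. The glucose transporter Slc2a1 was at 474 CPM (365 to 605) in 14 cells, against 11 in mural and 20.03 in other cells. The large neutral amino acid transporter Slc7a5 was at 503 CPM (391 to 638) but in 9 cells only. Several genes tied to a mature barrier were sparse: the lipid transporter Mfsd2a had 7 UMIs in 3 cells, the efflux pump gene Abcb1a had 4, the tight junction gene Ocln had 2, and the anion transporter Slco1a4 had 0. Claudins other than Cldn5 summed to 2 UMIs over the 6 genes measured.

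The fenestration gene Plvap was detected in the same cells. It stood at 437 CPM (332 to 563), with 59 UMIs in 15 of 20 cells, against 22.0 CPM in mural and 2.20 in other cells. A Plvap UMI was found in 75% of endothelial cells (50.9 to 91.3) and in 0.684% of the others, at median depths of 4424 and 3336 UMIs. Of the 6 genes of the fenestration and pituitary capillary list, 4 were higher than in the other cells (Plvap, Cav1, Igfbp3 and Col15a1). Col15a1, a collagen of the vessel wall, was at 281 CPM (199 to 386) and at 0 UMIs in the mural cells, and so at least 17.0-fold higher.

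Within the endothelial cells, transcripts of the barrier list lay unevenly. Slc2a1 was at 5 UMIs or more in 6 cells, with 8, 19, 7, 8, 7 and 5 UMIs, and at 2 or fewer in the other 14, so no cell had 3 or 4. This split was made after the values were seen, and depth differed between its sides, with median totals of 9874 and 3841.5 UMIs. The comparison below is therefore on CPM and is a description. The member with 7 Rgs5 UMIs was among the 6 cells and the cell with no endothelial marker among the 14, and both were kept in. Foxq1, a forkhead factor of brain endothelium, was present in all 6 Slc2a1-rich cells with 1 to 7 UMIs and in 1 of the 14 others with 1 UMI, a ratio of 29.3 (4.73 to 1208). The matrix proteoglycan gene Spock2 was at 810 against 51.9 CPM, 15.6 times higher (5.71 to 59.7). Foxf2, Lef1, Slc7a5 and Lsr lay the same way, at 5.99, 5.76, 6.89 and 4.32 times. Pdgfb was 4.32 times higher as well.

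The 14 cells low in Slc2a1 carried more of a different set. Emcn, which encodes the sialomucin endomucin of veins and capillaries, was at 700 CPM against 190 in the Slc2a1-rich cells, 3.69 times higher (1.91 to 7.83), and reached 14 UMIs in 1 cell. The apelin receptor gene Aplnr was at 506 against 190 CPM, 2.67 times (1.34 to 5.77). Gpihbp1, which anchors lipoprotein lipase to the capillary wall, was 5.51 times higher (1.66 to 28.8), but 16 of its 22 UMIs in these cells came from 1 cell. Plvap was at 544 against 293 CPM, 1.86 times (1.04 to 3.48), and was detected in 5 of the 6 Slc2a1-rich cells, so the genes of both lists overlapped in single cells. Endothelial identity genes did not lie evenly either. The Slc2a1-rich cells were at 2.39 times the others for Flt1 (1.5 to 3.88), 2.17 times for Kdr (1.35 to 3.54), 2.84 times for Lmo2 (1.68 to 4.95) and 1.62 times for Cd34 (1.10 to 2.41). They were at 1.08 times for Cdh5 (0.711 to 1.64) and 1.46 times for Tie1 (0.762 to 2.83), both with intervals that hold 1.

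**Figure D2:**
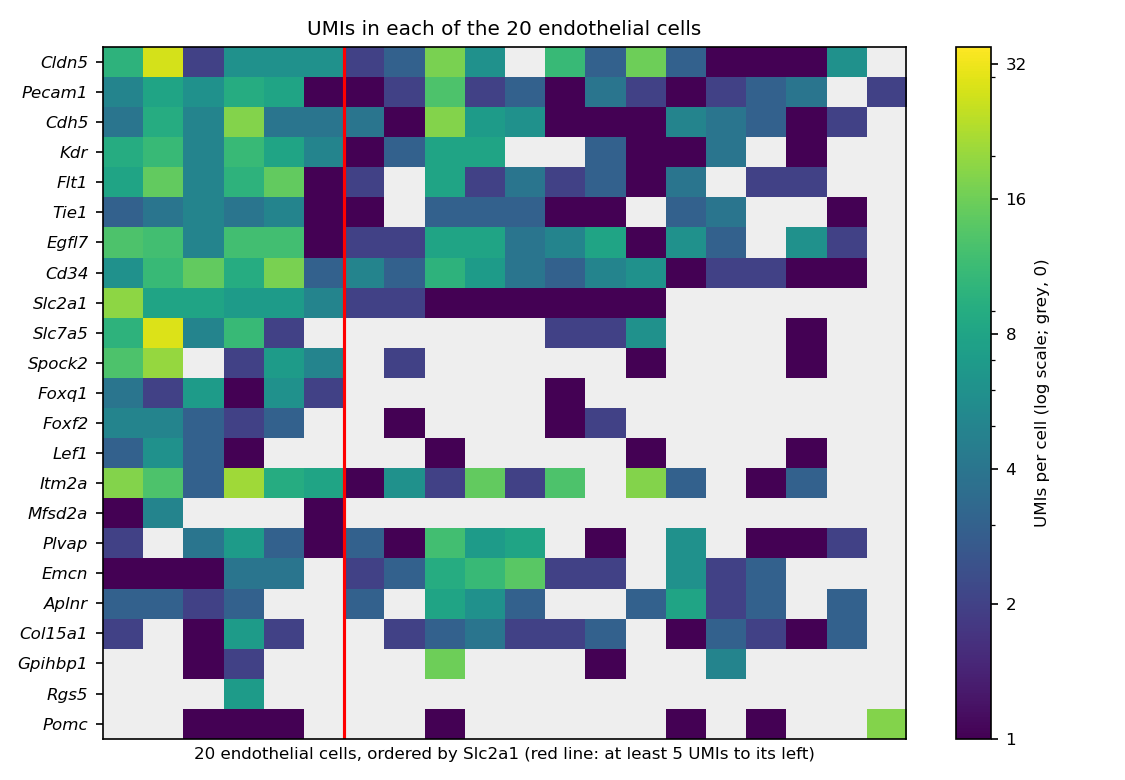
UMIs of selected genes (rows) in each of the 20 endothelial cells (columns), on a log colour scale with 0 in grey and cells ordered by Slc2a1. The 6 cells to the left of the red line had at least 5 Slc2a1 UMIs and all had Foxq1, Plvap was spread over both sides (15 cells), and the last cell had no marker of the endothelial list and 18 Pomc UMIs.

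Split instead by Plvap, the 5 cells without a Plvap UMI held 6266 CPM (5377 to 7260) summed over the 19 barrier genes other than Slc2a1 and the 15 with one held 2956 CPM (2639 to 3301). The share of that sum was uneven too: 1 cell without Plvap carried 29 of the 37 Slc7a5 and 20 of the 21 Spock2 UMIs of its side, and 117 of the 177 UMIs of the sum. Without that cell, left out after its values were seen, the 4 others held 4354 CPM (3323 to 5605), and without the cell that had no endothelial marker as well, 5012 CPM (3824 to 6451). Slc2a1 itself was at 354 CPM in the cells without and 505 CPM in the cells with Plvap, a ratio of 0.701 (0.318 to 1.39) with an interval that holds 1.

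The limit of 4500 detected genes took out more of these cells than of others. Before filtering, 28 barcodes met the endothelial gate, and 8 of them (28.6%, 13.2 to 48.7) lay above the limit, against 0.845% of the barcodes in neither gate. Of the 8, 6 carried at least 9 of the 10 endothelial markers, and 2 had none and just 2 Pecam1 UMIs. The 6 held 17662 to 46207 UMIs each, more than any endothelial cell kept. Of these 6, 4 had 15 to 30 Slc2a1 UMIs, 11 to 20 of Foxq1 and 22 to 64 of Slc7a5, and 3 of those 4 had 5 to 11 of Mfsd2a. Not every gene of the split lay as in the kept cells. Emcn was lower in these 4 than in the other 2, at 173 against 384 CPM, a ratio of 0.451 (0.240 to 0.856), but Aplnr lay the opposite way, at 492 against 154 CPM and a ratio of 3.20 (1.54 to 7.70). The Plvap ratio was 0.691 (0.330 to 1.52), with an interval that holds 1. One of these 4 also carried 496 UMIs of the globin gene Hba-a1 and another removed barcode carried 6 Rgs5 UMIs. Whether a barcode of this depth is 1 large cell or several cells in a droplet was not tested. With the limit lifted, the endothelial gate held 27 cells, 16 barrier genes in place of 10 met the 2-fold rule, and Plvap was at 286 CPM.

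**Figure D3:**
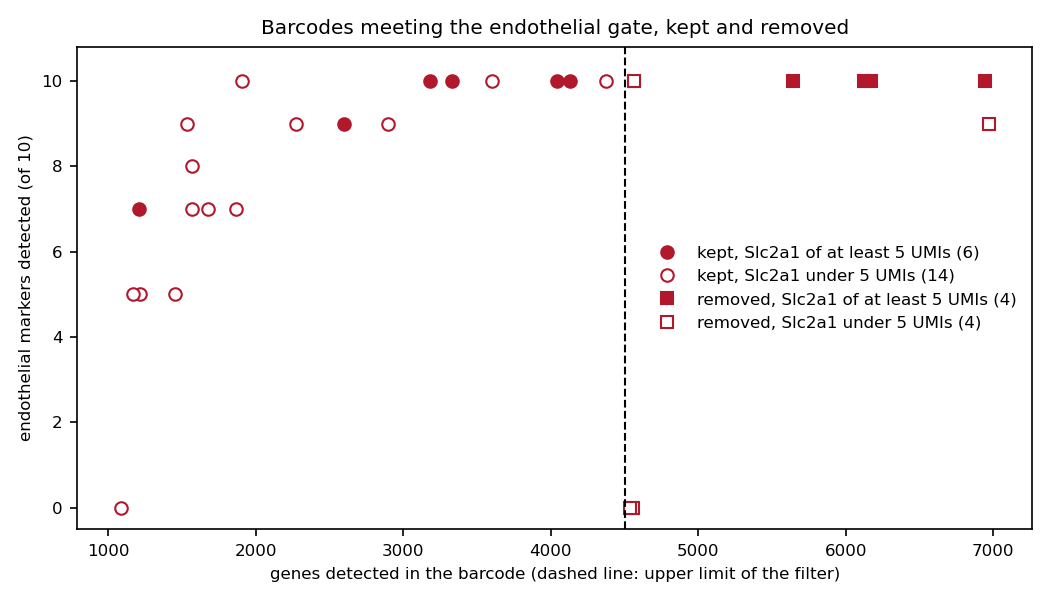
Genes detected (x axis) and endothelial markers detected of 10 (y axis) for the 28 barcodes that met the endothelial gate, with circles for kept and squares for removed barcodes and filled symbols for at least 5 Slc2a1 UMIs. Of the 8 removed barcodes, to the right of the dashed limit of 4500 genes, 6 carried 9 or 10 markers, and 4 of them were rich in Slc2a1.

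Genes of vessel growth and vessel type were found in the endothelial cells at lower counts. Of 15 such genes, 6 met the 2-fold rule against the other cells (Efnb2, Unc5b, Apln, Aplnr, Kcne3 and Dll4). Aplnr was at 370 CPM (275 to 488) in 13 cells and its ligand Apln, known from tip cells, at 88.8 CPM (45.9 to 155) in 8. The Notch ligand Dll4 was at 81.4 CPM in 5 cells and the arterial ephrin Efnb2 at 104 CPM in 6. The venous factor Nr2f2 was at 96.2 CPM in endothelial and 175 CPM in other cells. Kcne3 rested on 2 cells, 1 of which held 10 of its 13 UMIs. In mural cells 4 of the 15 met the rule (Gja4, Hey1, Unc5b and Nr2f2). The list summed to 705 CPM in mural cells and to 876 CPM in the fibroblast gate described below, against 360 CPM in the others.

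Mural identity genes were higher in the mural cells. Of 22 genes, 16 met the 2-fold rule against the other cells (background 4.47%), with a median ratio of 38.9, and none was lower. The potassium channel subunits Kcnj8 and Abcc9, which together form the channel of pericytes and smooth muscle that ATP closes, lie next to each other on the minus strand of chromosome 6 (142564837 to 142571614 and 142587862 to 142702315). They were at 727 CPM (608 to 862) and 496 CPM (399 to 609). Higd1b, a gene of brain pericytes, was at 677 CPM (563 to 808) in 27 cells, which was 1021 times the other cells (604 to 1842). Vtn, the gene of the adhesion protein vitronectin, was at 628 CPM (518 to 754), and the mitochondrial gene Ndufa4l2 at 810 CPM (684 to 952).

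Endothelial cells were at or near 0 for most of these genes. Of the 22 mural identity genes, 13 had no UMI in the endothelial cells, and 2 (Mcam and Foxc1) met the 2-fold rule there. Kcnj8 and Higd1b were at 0 in the endothelial cells and so at least 32.7 and 30.5-fold higher in the mural cells. Vtn had 1 endothelial UMI, a ratio of 84.8 (14.9 to 3380). Over all genes, 3.17% were higher in endothelial than in mural cells and 3.71% lower.

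Against the 112 cells of the fibroblast gate (Col1a1, Lum and Dcn summing to 3 or more, within the other cells), the mural cells also stood apart. Higd1b was at 0 UMIs in the fibroblast gate and at least 115-fold higher in the mural cells, Kcnj8 was 30.8 times higher (17.0 to 61.1) and Ets1 7.67 times (4.88 to 12.4). Vtn and Myl9 were 4.20 and 5.09 times higher. The fibrillar collagen gene Col3a1 was at 292 CPM in mural cells and 1588 CPM in the fibroblast gate, a ratio of 0.184 (0.136 to 0.243), part of which the collagen limit of the mural gate sets.

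Contractile genes were present without the genes of mature smooth muscle. Of 9 such genes, 7 met the 2-fold rule in mural cells, among them the myosin light chain Myl9 at 551 CPM (448 to 670) in 30 cells and caldesmon, Cald1, at 1223 CPM (1067 to 1394) in 46. Smooth muscle actin, Acta2, had 10 UMIs in 5 cells, at 55.1 CPM (26.4 to 101), with 5 of them in 1 cell. It thus only just reached the minimum of the rule. With mitochondrial UMIs at most 5%, its ratio to the other cells fell from 73.8 to 19.6. Myh11 and Cnn1, both defining genes of smooth muscle, were at 0 UMIs in all 48 cells, and Tagln had 2.

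The 2-fold rule was also met in mural cells by 6 endothelial identity genes (Emcn, Esam, Ramp2, Eng, Ets1 and Ecscr). The transcription factor Ets1 was at 408 CPM (320 to 512) in 38 of 48 cells, and endothelial cells were 1.49 times higher (1.07 to 2.07). The junction protein gene Esam was at 121 CPM, 133 times the other cells (70.1 to 251). In the mural cells 7 genes of that list were at 0, Tie1, Sox18 and Robo4 among them, and Cdh5 and Kdr had 1 UMI each. The forkhead genes Foxq1 and Foxf2 were among 6 of 19 barrier genes that met the rule in mural cells, with endothelial to mural ratios of 0.792 (0.452 to 1.36) and 0.954 (0.526 to 1.70), both intervals holding 1. Spock2 was lower in mural than in other cells, at 5.51 against 55.9 CPM. The barrier list summed to 920 CPM (785 to 1070) in mural and 789 CPM (714 to 870) in fibroblast-gate cells, against 253 CPM in the others. Both groups thus carried transcripts of ETS and forkhead factors.

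The ETS family binds the core GGAA, and the sequences just upstream of a gate gene of each group are shown as an illustration of how often that core occurs. Each is the 150 bases before the transcription start in RefSeq on GRCm38.p6, plus strand, chr16:18776697-18776846 for Cldn5 and chr1:169655351-169655500 for Rgs5, with GGAA or its reverse TTCC in capitals.
Cldn5: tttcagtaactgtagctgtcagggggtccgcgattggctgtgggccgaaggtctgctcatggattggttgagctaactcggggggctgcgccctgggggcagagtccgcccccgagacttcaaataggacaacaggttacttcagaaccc
Rgs5: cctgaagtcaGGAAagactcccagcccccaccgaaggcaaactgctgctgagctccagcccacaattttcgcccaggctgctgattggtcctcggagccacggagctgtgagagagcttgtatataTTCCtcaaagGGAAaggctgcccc
The Cldn5 window held no match and the Rgs5 window 3, while the window of the mural gene Kcnj8, not shown, held 0. The core is common, being found in a window of this length in 82.9% of 27025 genes, in all 10 of the 22 endothelial identity genes matched in the RefSeq table and in 11 of the 15 of 22 mural identity genes matched. A match is a run of letters and not a binding site.

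The 8 mural-gate cells without Rgs5 differed from the 40 with it in most mural genes. Their median depth was higher, at 6590.5 against 2922.5 UMIs, and yet Kcnj8 was at 57.0 CPM against 1000, 17.5 times lower (5.87 to 86.1). Ndufa4l2 was 14.6 times lower (5.57 to 54.2), Myl9 13.2 times (4.38 to 65.0) and the Notch target gene Heyl 9.58 times (2.51 to 81.4). Pdgfrb, which chose them, was at 494 against 527 CPM.

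Other genes were higher in these 8 cells than in the cells with Rgs5. Mdk, which encodes the growth factor midkine and comes from the neural progenitor list, was at 1 to 24 UMIs a cell and at 1521 against 388 CPM, 3.92 times higher (2.72 to 5.71). Tcf21, a transcription factor of mesenchyme and a member of the fibroblast list, was at 152 against 15.5 CPM, 9.81 times (1.96 to 94.8), and Cygb, the globin of fibroblasts and stellate cells, from the mural identity list, 3.22 times (1.60 to 6.60). All 8 cells had Col1a1 (1 or 2 UMIs) and Col1a2 (2 to 5 UMIs), below the collagen limit. Emcn was detected in 7 of them and at 418 CPM, 2.57 times the cells with Rgs5 (1.35 to 4.91). Emcn was also found in 41.1% of cells of the fibroblast gate and 1.67% of all other cells. Without these 8 cells, 15 of the 22 mural identity genes met the 2-fold rule.

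**Figure D4:**
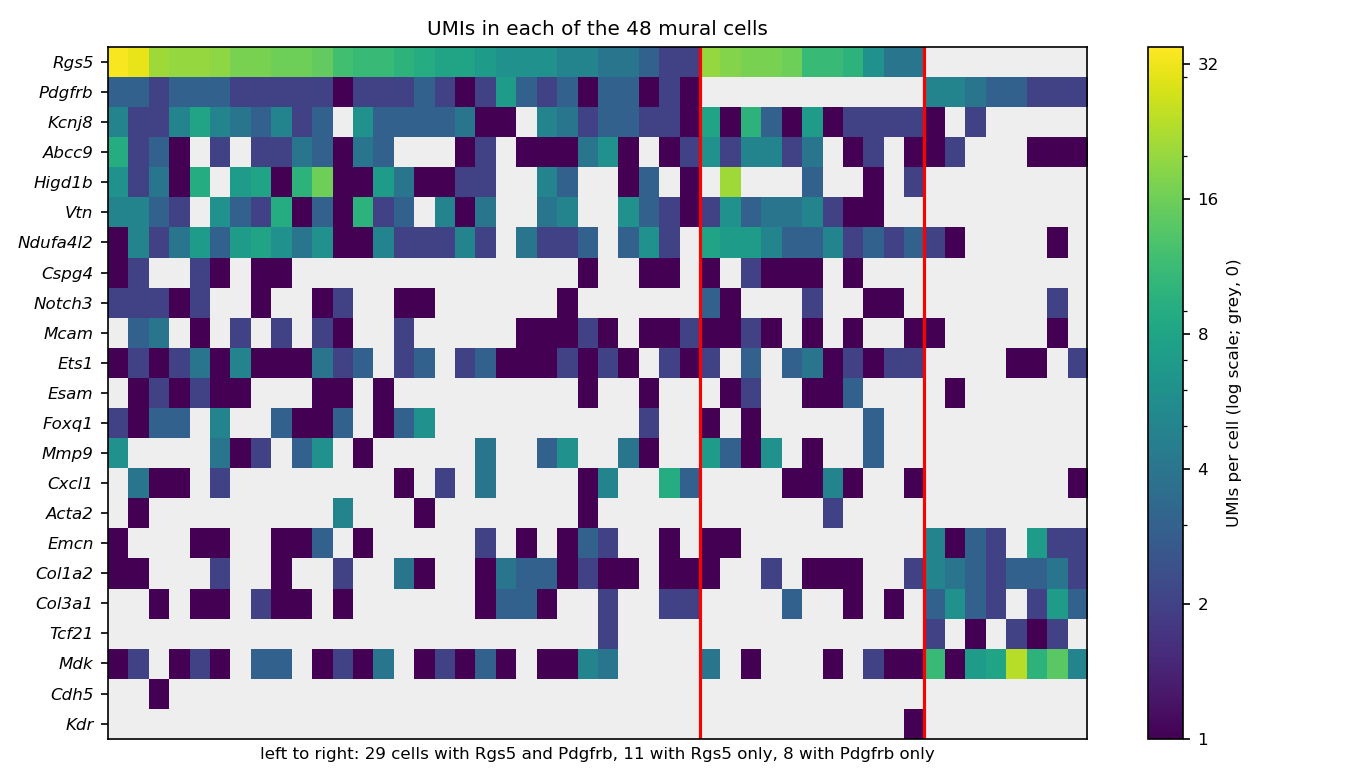
UMIs of selected genes (rows) in each of the 48 mural-gate cells (columns), on a log colour scale with 0 in grey. The red lines part 29 cells with Rgs5 and Pdgfrb, 11 with Rgs5 only and 8 with Pdgfrb only, and the last 8 lack Higd1b and Vtn, all carry Mdk and Col1a2, and 7 of them carry Emcn.

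Between the 11 cells with Rgs5 and no Pdgfrb UMI and the 29 with both, the share with mural markers was close. At least 5 of the 8 mural markers were found in 9 of the 11 and in 24 of the 29. Rgs5 ranged from 4 to 20 UMIs in the 11 and from 2 to 34 in the 29.

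Macrophage genes summed to 1 UMI in the mural cells, and all 10 neuronal genes were lower than in the other cells (background 4.55%), with Tubb3 at 77.1 CPM. Here too the Stmn2 limit of the gate favoured low neuronal genes. Of the 12 fibroblast genes, 3 (Col1a2, Col3a1 and Tcf21) met the 2-fold rule in mural cells. The 12 genes together stood at 909 CPM (775 to 1058) in mural and 208 CPM in other cells, and their part in the mural values was not tested. The 8 cells without Rgs5 held 8 of the 10 Tcf21, 26 of the 53 Col3a1 and 26 of the 64 Col1a2 UMIs. In the 40 cells with Rgs5 the list stood at 721 CPM (582 to 883), and Col1a2 and Col3a1 but not Tcf21 met the rule.

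Basement membrane genes were high in both groups, and in the fibroblast gate too. The list summed to 8687 CPM (8198 to 9199) in endothelial, 6030 CPM (5678 to 6398) in mural and 4949 CPM (4758 to 5147) in fibroblast-gate cells, against 562 CPM in the others, and the median cell held 20.5 UMIs of it in the mural and 19 in the fibroblast gate. Of 22 genes, 16 met the 2-fold rule in endothelial and 15 in mural cells, with median ratios of 12.5 and 11.1 to the other cells. The chains of collagen IV, Col4a1 and Col4a2, were at 1591 and 962 CPM in endothelial and 1101 and 584 CPM in mural cells, and Col4a1 was at 18.5 CPM in the others. In endothelial cells 5 genes were at least 2-fold higher than in mural cells (Nid2, Hspg2, Sparc, Col18a1 and Itga6), with the perlecan gene Hspg2 6.27 times higher (3.32 to 12.9) and Col18a1 5.13 times (3.18 to 8.62). Lower there were 3 (Lamb1, Timp3 and Itga1). Col4a1 was uneven within both groups: the Slc2a1-rich endothelial cells had 2.70 times the level of the others (2.02 to 3.64), and the mural cells with Rgs5 4.39 times the level of those without (2.67 to 7.70). Of the 144 Col4a1 UMIs of the Slc2a1-rich cells, 51 lay in 1 cell, and these cells include the member with 7 Rgs5 UMIs.

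Genes of signalling between the cell types were compared across 71 ligands, receptors and targets of 7 pathways. Of these, 14 were at least 2-fold higher in endothelial than in mural cells (background 3.17%) and 7 the other way (background 3.71%). These counts were 8 and 7 when only cells without a Stmn2 UMI were kept, and 7 and 9 without cells above 2 times the median UMIs of their group.

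For PDGF signalling, the ligand Pdgfb was at 126 CPM (73.3 to 201) from 17 UMIs in 8 endothelial cells and at 0 in the mural cells, and so at least 7.61-fold higher in the endothelial cells, while its receptor Pdgfrb was one of the gate genes. Of the 5 genes of that list, Pdgfb alone met the 2-fold rule.

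For VEGF signalling, 3 of 9 genes were higher in endothelial cells than in the others (Flt1, Kdr and the co-receptor Nrp1) and 2 in mural cells (Pgf and Nrp1). Kdr and Flt1 were 106 times (18.5 to 4245) and 56.4 times (15.1 to 474) higher in endothelial than in mural cells. The ligand Pgf, placental growth factor, was at 132 CPM (84.7 to 197) in 16 mural cells and at 0 in the endothelial cells. Vegfa had 5 mural and no endothelial UMIs.

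The receptors Tek and Tie1 of the angiopoietin list met the rule in endothelial cells, at 111 and 311 CPM, while the ligands Angpt1 and Angpt2 had at most 1 UMI in either group.

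Notch genes were found on both sides, in part with the same members. Between the groups, 1 of 13 genes was higher in endothelial cells (Dll4) and 3 in mural cells (Notch3, Hey2 and Heyl), while 9 met the rule neither way. Of 13 genes, 5 were higher than in the other cells in endothelial (Dll4, Jag1, Notch1, Hes1 and Nrarp) and 8 in mural cells (Jag1, Notch1, Notch3, Hes1, Hey1, Hey2, Heyl and Nrarp). The receptor gene Notch3, known from mural cells, was at 143 CPM (93.5 to 210) against 7.40 in endothelial cells, 19.3 times (3.18 to 793). Its target Heyl was at 270 CPM (200 to 357) and at 0 in the endothelial cells. The ligand Jag1 was at 133 CPM in endothelial and 154 CPM in mural cells.

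In the TGF-beta list, 7 of 13 genes were higher in endothelial and 4 in mural cells than in the others, and the receptor gene Tgfbr1 was lower in both. The receptors Acvrl1 and Eng were 11.2 times (3.42 to 57.9) and 4.30 times (2.37 to 8.27) higher in endothelial than in mural cells. The ligand Tgfb1 was at 96.2 and 138 CPM, and the target Id3 was higher in mural cells, at 986 against 474 CPM.

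Of 10 genes of chemokine, sphingosine 1-phosphate and endothelin signalling, 3 met the rule against other cells in each group, with Gng11 in both. S1pr1, a receptor for sphingosine 1-phosphate, was at 207 CPM (138 to 299) in endothelial cells and 0 in mural cells, whereas its paralog S1pr3 was at 286 CPM (214 to 376) in mural cells and 0 in endothelial cells. With the 0 counts set at their limit, these differences were 12.5-fold and 12.9-fold. The endothelin receptor gene Ednra was at 171 CPM (116 to 242) in 22 mural cells and had 1 endothelial UMI. The other endothelin receptor gene, Ednrb, was not divided, with 6 endothelial and 5 mural UMIs. Gng11, a G protein gamma subunit, was high in both, at 984 and 837 CPM.

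Of 17 genes of the Wnt pathway of the barrier, Lef1 and Nkd1 met the 2-fold rule in endothelial cells and none did in mural cells. The nuclear effector Lef1 was at 118 CPM (67.7 to 192) and at 0 UMIs in mural cells. The receptor gene Fzd4 had 7 endothelial UMIs and no mural one. The coreceptor Adgra2, which with Reck relays Wnt7 to brain endothelium, had 9 UMIs in endothelial and 8 in mural cells, both under the minimum.

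**Figure D5:**
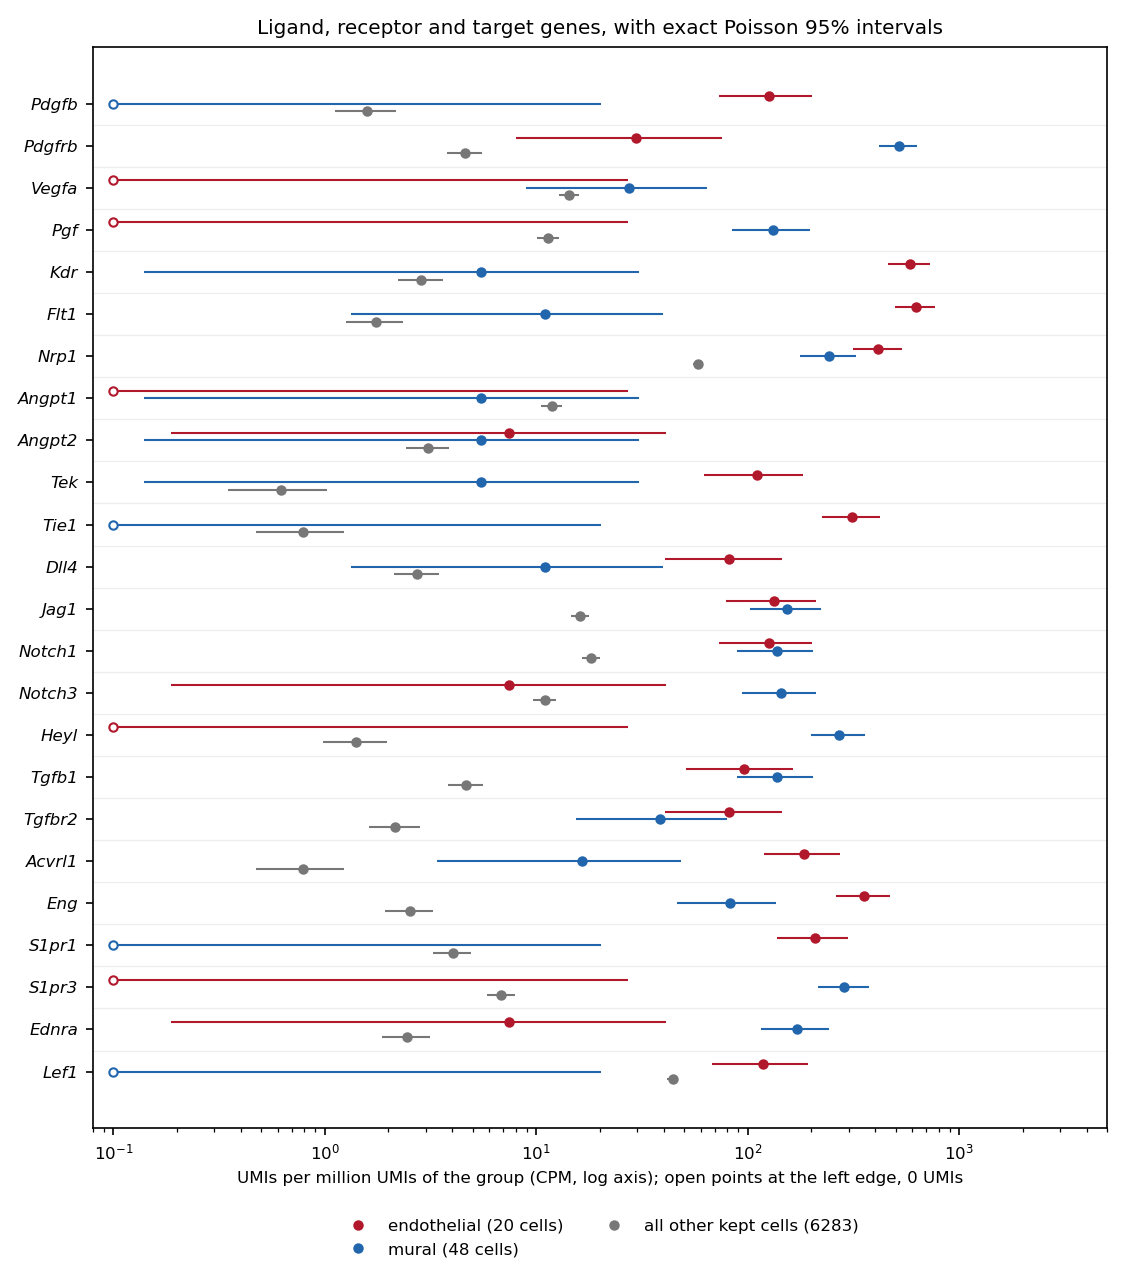
Levels in CPM (log axis) of ligands, receptors and targets in endothelial, mural and other cells, with exact Poisson 95% intervals as lines and 0 UMIs as open points at the left edge. Pdgfb, Kdr, Tie1, Acvrl1 and S1pr1 lay to the right in endothelial cells and Pgf, Notch3, Heyl, S1pr3 and Ednra in mural cells, with Jag1, Notch1 and Tgfb1 close to each other in both.

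Transcripts of dividing cells were more frequent than in the other cells as a whole. The 2-fold rule was met by 5 of 8 cell cycle genes in endothelial and 8 of 8 in mural cells, and the 8 genes summed to 725 CPM (589 to 884) and 964 CPM (826 to 1118), against 257 CPM in the others and 661 CPM (592 to 736) in the fibroblast gate, whose interval overlaps the endothelial one. At least 2 UMIs of these genes were found in 10 of 20 endothelial cells (50%, 27.2 to 72.8), in 16 of 48 mural cells (33.3%, 20.4 to 48.4), in 17.0% of the fibroblast gate (10.5 to 25.2) and in 6.96% of the others. After each cell was thinned to 2167 UMIs, which left out 2 endothelial, 11 mural and 622 other cells, the shares were 38.9%, 32.4% and 5.35%, and 13.9% in the fibroblast gate. Among cells without a Stmn2 UMI, the shares were 28.6% in endothelial and 32.6% in mural cells. In the mural group, 7 of the 8 cells without Rgs5 and 9 of the 40 with it passed this limit, at median depths of 6590.5 and 2922.5 UMIs. After thinning these were 4 of 8 (50%, 15.7 to 84.3) and 8 of 29 (27.6%, 12.7 to 47.2), with intervals that overlap.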

How the data were processed

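Droplet single-cell RNA-seq was deposited as 1 table of raw counts (UMIs for each gene in each barcode) that the authors had produced using Cell Ranger 2.1.1 and STAR 2.4.0 on mm10 (per the submitters' processing notes), holding 6465 barcodes, 27998 genes and 26277265 UMIs. The 4 GEO samples are runs of 1 pooled library, summed in the deposited table, so all cells formed 1 group with no test.

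Kept barcodes had between 200 and 4500 genes with a UMI, no more than 10% of UMIs from mitochondrial genes and no more than 10 from Hba-a1 (6351, with 1748 to 16836 UMIs, median 3338), the limits stated by the study, whose own count of cells after filtering is smaller for a reason not traced here. No doublet caller was run: beyond the gene limit, doublets were addressed only by the alternative without cells above 2 times the median UMIs of their group. Genes in more than 3 kept cells entered. Levels are CPM with exact Poisson intervals, shares have exact Clopper-Pearson intervals, and ratios have conditional exact binomial intervals, all at 95%. A UMI count of 0 was given a limit of 3 UMIs. UMI intervals cover counting error only. Shares of dividing cells were repeated with every cell cut at random to 2167 UMIs (the depth 10% of cells fall short of).

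Named genes were the gate genes, genes of 24 lists (identity, barrier, pathway, matrix and other cell types), and for each group the 10 unlisted genes with the largest ratio among those with at least 20 UMIs in at least 20% of cells. The members and lists were chosen with earlier results of these data known. Coordinates are from GENCODE on GRCm38 and promoter sequences from RefSeq. On simulated Poisson counts with no spread between cells, 200 genes with enough expected UMIs to pass the rule were changed 4-fold. Of these, 100% (endothelial, 16546 genes) and 99.5% (mural, 16540 genes) were recovered, and 98.1% of intervals held the true ratio in each. The recovery was thus largely set in advance, and neither figure covers the uneven counts between real cells. Python 3.11.15, numpy 2.4.6, scipy 1.17.1 and pandas 2.3.3 were used.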

Additional observations from a re-analysis of the deposited data

Results flagged for a closer look

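The barcodes taken out by the quality filters held a signal of their own: 8 of them met the endothelial gate, all of them above 4500 detected genes, and so in no comparison of the report apart from the account of that limit. Of these, 6 carried at least 9 of the 10 endothelial markers, and 1 further removed barcode met the mural gate with 7 of the 8 mural markers.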

How the results depend on the processing

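The alternatives were run on the ratios of 22 endothelial and 21 mural genes to the other cells, and none of these changed direction, though 2 comparisons of endothelial with mural cells did. Of the values that answer a comparison, 132 stayed within 1.5 times or within their interval and 22 moved; of those ratios, 306 stayed and 38 moved. With Stmn2 at 0 UMIs, 14 endothelial cells were left, 8 ligand and receptor genes in place of 14 were higher in endothelial than in mural cells (7 the other way), the share of dividing cells was 28.6% in endothelial and 32.6% in mural cells in place of 50% and 33.3%, and 399 genes in place of 729 were higher and 364 in place of 629 lower than in other cells. In that setting, where gated cells with 1 to 3 Stmn2 UMIs count among the others, the ratios of 7 of the 22 endothelial genes fell by over 1.5 times, Gpihbp1 from 1115 to 126 and Aplnr from 1784 to 221. Without cells above 2 times the median UMIs of their group, 14 endothelial cells were left, and these counts were 7 (9 the other way), 272 and 261, with 9 basement membrane genes in place of 16; 5 of the 22 endothelial ratios fell by over 1.5 times, Spock2 from 6.76 to 2.81, Slc7a5 and Pdgfb to 0.555 of their value, Col4a1 to 0.648 and Gpihbp1 to 0.661. With mitochondrial UMIs at most 5%, the mural Acta2 ratio fell from 73.8 to 19.6 and that of Vtn rose from 120 to 222. With CPM over UMIs outside mitochondrial, ribosomal protein and globin genes, Plvap was at 611 in endothelial cells. With no minimum of UMIs, 18 barrier genes, 2619 endothelial and 2526 mural genes were higher and 8604 and 7881 lower. At a fold of 4, the counts were 421 and 405 higher and 344 and 370 lower. The next 3 alternatives were chosen after seeing the data. Lifting the limit on detected genes gave 16 barrier genes, Plvap at 286 CPM, 22 ligand and receptor genes higher in endothelial than mural cells, and 1309 endothelial genes higher and 1179 lower, and the ratios of 9 of the 22 endothelial genes to the other cells fell by over 1.5 times, Gpihbp1 to 0.422 of its value. Leaving out the mural cells without Rgs5, or the 2 endothelial cells that go against the markers, moved no count by over 1.5 times, but the Mdk ratio of mural to other cells fell from 2.08 to 1.13 without the former, and it was also under 2 at a gate of 3 UMIs (1.88), with Stmn2 at 0 (1.95) and without the deeper cells (1.80). The share of dividing endothelial cells reached 55.6% at most. Fewer cells, and so fewer genes past the minimum of 10 UMIs, come with several of these settings by construction; beyond that the cause was not tested. No paired analysis was possible because the runs are 1 pooled library, and no replicate could be left out. With 20 and 48 cells, genes under about 22.2 and 16.5 CPM could not be told from 0.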

Other observations

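Genes outside the lists that stood highest in the endothelial cells, ranked by their ratio to the other cells, were Gpihbp1, Adgrl4, AU021092, Cd93, Icam1, Gimap6, Ctla2a, Clec14a, Rasgrp3 and Vamp5. Because the gate chose the cells, their levels are a description. Cd93, a lectin-like receptor of endothelium, was at 629 CPM (502 to 778) in 15 of 20 cells and 2.03 CPM in the others. Icam1, which leukocytes use to attach to endothelium, was at 170 CPM (108 to 255) in 10 cells. Gpihbp1 had 25 UMIs in 5 cells, so its place at the head of the ranking rested on few cells. Of the 10, 6 (Gpihbp1, Adgrl4, AU021092, Ctla2a, Clec14a and Vamp5) were at 0 UMIs in the mural cells.

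In the mural cells the 10 were Mmp9, Adap2os, Cxcl1, Cd248, Ifitm1, Ngfr, Igfbp7, Tmem45a, Epas1 and Bgn. The matrix protease gene Mmp9 was at 341 CPM (262 to 438) in 18 of 48 cells, against 0.788 CPM in the other cells and 3.94 CPM in the fibroblast gate, and all 62 UMIs were in cells with Rgs5. The chemokine gene Cxcl1 was at 237 CPM (171 to 319) in 17 cells, with up to 9 UMIs in 1 cell, and was also found in 5 endothelial cells at 74.0 CPM. Cd248, a sialomucin of pericytes and stroma, was at 275 CPM in mural, 64.9 CPM in fibroblast-gate and 0 in endothelial cells. Igfbp7, Epas1 and Bgn were high in both vascular groups, at 2104, 182 and 1096 CPM in mural and 1465, 274 and 592 CPM in endothelial cells. Macrophage genes were at 0 UMIs in the endothelial and at 1 in the mural cells, and no leukocyte list beyond that one was examined. Gja4, the gap junction gene of arterial endothelium, was at 110 CPM (67.3 to 170) in 13 mural cells and had 3 UMIs, in 1 cell, among the endothelial cells. Pituitary genes were low, with Pomc at 178 CPM in endothelial cells, 18 of its 24 UMIs being in the 1 cell without endothelial markers, and at 27.5 CPM in mural and 544 CPM in other cells.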
